A study of Mus musculus with 17 samples.

Results

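Kidneys of db/db mice given dapagliflozin (Dapa, n = 6) were compared with those of db/db mice given saline (Case, n = 6) over all genes. Members were chosen by group label alone. They are 12 of the 17 libraries of the series, and the 5 libraries of non-diabetic mice were not used here. Both groups were male BKS.Cg-Dock7m +/+ Leprdb/J mice, in which the leptin receptor is defective and obesity and type 2 diabetes follow, and treatment began when they were 8 weeks old. Dapagliflozin was given by gavage at 1.0 mg per kg of body weight each day for 6 weeks, and Case mice received saline over the same period. RNA was sequenced from kidney tissue, with 1 library per mouse, Case 1 to 6 and Dapa 7 to 12. In whole tissue, fewer cells of a type and less RNA per cell cannot be told apart.

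Dapagliflozin blocks SGLT2, the sodium-glucose cotransporter of the early proximal tubule encoded by Slc5a2, so that filtered glucose and sodium leave in the urine. Interferon-gamma, a cytokine of T cells and natural killer cells, acts through JAK kinases and transcription factors such as IRF1 on a set of target genes. These include the immunity-related and guanylate-binding GTPases, the immunoproteasome and the transactivator CIITA, which in turn switches on MHC class II, a programme that tubular epithelium can also enter in inflamed kidneys.

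The libraries held 14229892 to 17779635 counts in Case and 13039535 to 16094410 in Dapa. The share of counts from the mitochondrial genome was 19.8 to 27.3% in Case and 19.7 to 27.6% in Dapa (exact two-sided permutation test of the means, p = 0.723). In 4 libraries (Case 1 and Dapa 10, 11 and 12), the deposited FPKM of 3 genes did not match their counts, and those genes were left out. Since 3 of these 4 libraries were Dapa mice that also stood at one end of the first principal component (18.5 to 24.8, other mice −27.2 to 10.9), values from the other 8 libraries (Case 2 to 6 and Dapa 7 to 9) are given beside many of the results that moved there. In those 8 libraries 2.24% of all genes were higher and 3.12% lower at an unadjusted p under 0.05. Without Case 3 the shares were 7.69% and 7.12%. Slc5a2 itself ranged over 26.4 to 85.3 FPKM (median 53) in Case and 48 to 85.3 FPKM (median 65.5) in Dapa. Its fitted log2 fold change was 0.26 ± 0.24 (SE) (exact permutation p = 0.214). Slc5a1, which encodes SGLT1, the transporter of the later proximal tubule, had a log2 fold change of −0.14 ± 0.12 (exact permutation p = 0.353; 0.05 in the 8 libraries). For both genes the Dapa range lay within the Case range or reached its end, and neither differed beyond the spread between mice.

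Of 14573 genes tested, 0 passed an adjusted p of 0.05 in edgeR's quasi-likelihood test, which is 0.0% of the genes, and 1880 (12.9%) had an unadjusted p under 0.05. Of these, 910 were higher in Dapa (6.24% of the genes) and 970 lower (6.66%). On the same libraries DESeq2 called 200 genes (1.31%) and the edgeR exact test 125 (0.858%), of which 122 were shared, 38 higher and 84 lower in Dapa. Since no gene passed the main test, single genes are described below as higher or lower, with a fitted log2 fold change from edgeR, for many with ± SE. For part of them an exact two-sided permutation p on log2(FPKM + 1) is added, whose smallest possible value is 0.00216. Where this p is not printed, it lay on either side of 0.05. Those above were, among others, H2-Eb1 (0.0606), Tap1 (0.0909), Psmb9 (0.0736), Irf9 (0.0649), C4a (0.0584), Dtx3l (0.0606) and Samhd1 (0.0541). Counts of genes at p under 0.05 refer to edgeR's unadjusted p. The plot of size against p shows 2 kinds of genes at small p, tight genes of modest difference and interferon genes of large difference.

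**Figure D1:**
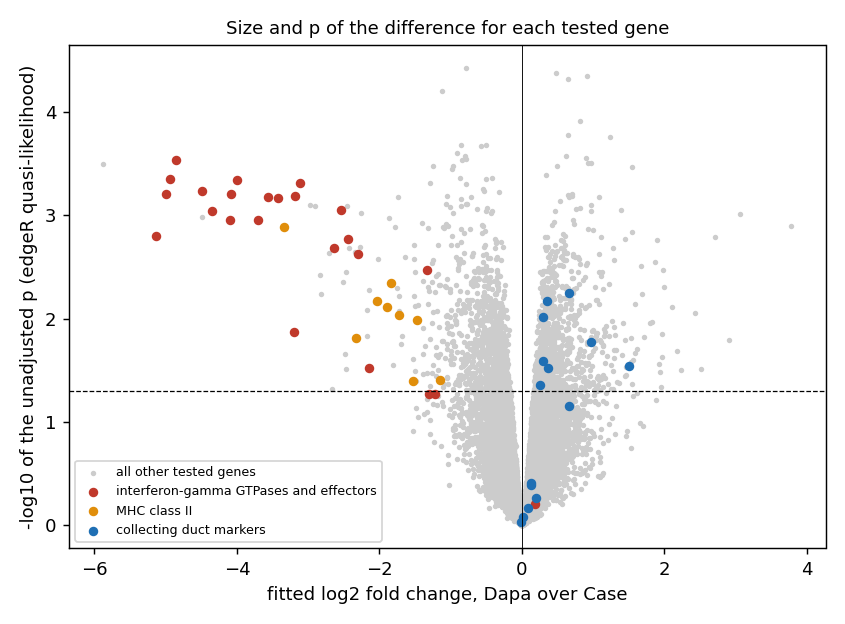
Each point is 1 of the 14573 tested genes, with the fitted log2 fold change (Dapa over Case) on the x axis and −log10 of the unadjusted edgeR p on the y axis, and the dashed line marks the level of 0.05. Of the 24 interferon-gamma effector genes 23 lie left of 0, at a median of −3.31, whereas 14 of the 15 collecting duct markers lie right of 0.

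The smallest p-values belonged mostly to genes with modest differences and little spread within a group. Rab3il1, an exchange factor for Rab GTPases (chr19:10001669-10038380; all positions are in mm10, the GRCm38 build), ranged over 3.46 to 4.7 FPKM (median 3.76) in Case and 1.79 to 3.06 FPKM (median 2.25) in Dapa. All 6 Dapa mice lay below all 6 Case mice. Its log2 fold change was −0.78 ± 0.13 (SE). The exact permutation p was 0.00216, and the adjusted p was 0.173 in edgeR and 0.000223 in DESeq2. Clec2d, a C-type lectin that is a ligand of a natural killer cell receptor (chr6:129180615-129186534), was at 44.1, 37.9, 45.6, 25.8, 25.6 and 24.9 FPKM in Case 1 to 6 and at 15.7, 11.8, 16.5, 12.3, 24.7 and 14.1 FPKM in Dapa 7 to 12. The highest Dapa mouse, Dapa 11, came just under the lowest Case mouse, Case 6, and the log2 fold change was −1.12 ± 0.20 (exact permutation p = 0.00216; DESeq2 adjusted p = 0.000223). In the 8 libraries the values were −0.62 for Rab3il1 and −1.11 for Clec2d.

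Other genes that were lower in Dapa without overlap were Npl, Vwa5a and Fam229b. Npl, the lyase that breaks down sialic acid, was at 28.8 to 54.6 FPKM (median 31.5) in Case and 16.2 to 25.8 FPKM (median 18) in Dapa (log2 fold change −0.86 ± 0.17, exact permutation p = 0.00216). Fam229b had one of the widest gaps, with 0.983 to 1.16 FPKM (median 1.04) in Case and 0.441 to 0.806 FPKM (median 0.633) in Dapa. Tmem25, Slc10a5 (a member of the bile acid transporter family), Adam11 and Osmr, the receptor of oncostatin M, had log2 fold changes of −0.58, −0.80, −0.84 and −0.96 with groups that overlapped in 1 or a few mice. The value of Slc10a5 was −0.53 in the 8 libraries. DESeq2 called each of these 7 genes.

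Among genes that were higher in Dapa, Hnrnpl, a regulator of splicing (chr7:28808541-28822266), was at 9.87, 8.98, 11.1, 10.5, 8.92 and 9.01 FPKM in Case 1 to 6 and at 11.6, 14.7, 13.8, 14.2, 14.8 and 13.5 FPKM in Dapa 7 to 12. Every Dapa mouse lay above every Case mouse, by a log2 fold change of 0.48 ± 0.08 (exact permutation p = 0.00216; DESeq2 adjusted p = 0.000179). Podn, which encodes the matrix proteoglycan podocan, was at 0.997 to 1.54 FPKM (median 1.37) in Case and 1.83 to 3.34 FPKM (median 2.39) in Dapa, again without overlap (0.91 ± 0.16, exact permutation p = 0.00216). Fam101b, an actin-associated refilin gene, and Plk3, a polo-like kinase gene of the stress response, had log2 fold changes of 0.64 ± 0.11 (0.40 in the 8 libraries) and 1.55 ± 0.33. Plk3 was at 0.694 to 2.64 FPKM (median 1.45) in Case and 2.97 to 7.51 FPKM (median 4.22) in Dapa, with Dapa 9 the highest mouse and no overlap. Pitpnm3, Gigyf1 and Edc4, a scaffold of mRNA decapping, were also without overlap, at log2 fold changes of 0.62, 0.49 and 0.34. Blnk, an adaptor of B cell receptor signalling, Arhgef37, Spsb1 and Ccdc112 had log2 fold changes of 0.82, 1.24, 0.92 and 0.71, and in each of them Dapa 7 alone lay within the Case range.

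In all, the 12 mice fell into separate ranges at 70 of the 14573 genes (0.48%), 46 with all Dapa mice above (0.316%) and 24 with all below (0.165%). The genes with the widest gaps relative to their range had differences of −0.86 to 0.34 on the log2 scale. Ammecr1l was at 18 to 19.1 FPKM (median 18.4) in Case and 14.2 to 16.7 FPKM (median 15.7) in Dapa, Csnk2a2, a catalytic subunit of casein kinase 2, at 5.13 to 5.65 FPKM (median 5.38) and 6.12 to 7 FPKM (median 6.47), and Med9, a subunit of Mediator, at 7.4 to 8.34 FPKM (median 8.2) and 9.14 to 10.7 FPKM (median 10.2). Fam169b was at 1.9 to 3.17 FPKM (median 2) and 0.795 to 1.5 FPKM (median 1.31). These genes were chosen for their gap, so their values are a description, and wherever the groups do not overlap the exact permutation p is at its smallest possible value by construction. The count moved with single mice, to 208 without Case 3 and 288 without Dapa 7, although ranges also separate more easily with 1 mouse fewer.

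**Figure D2:**
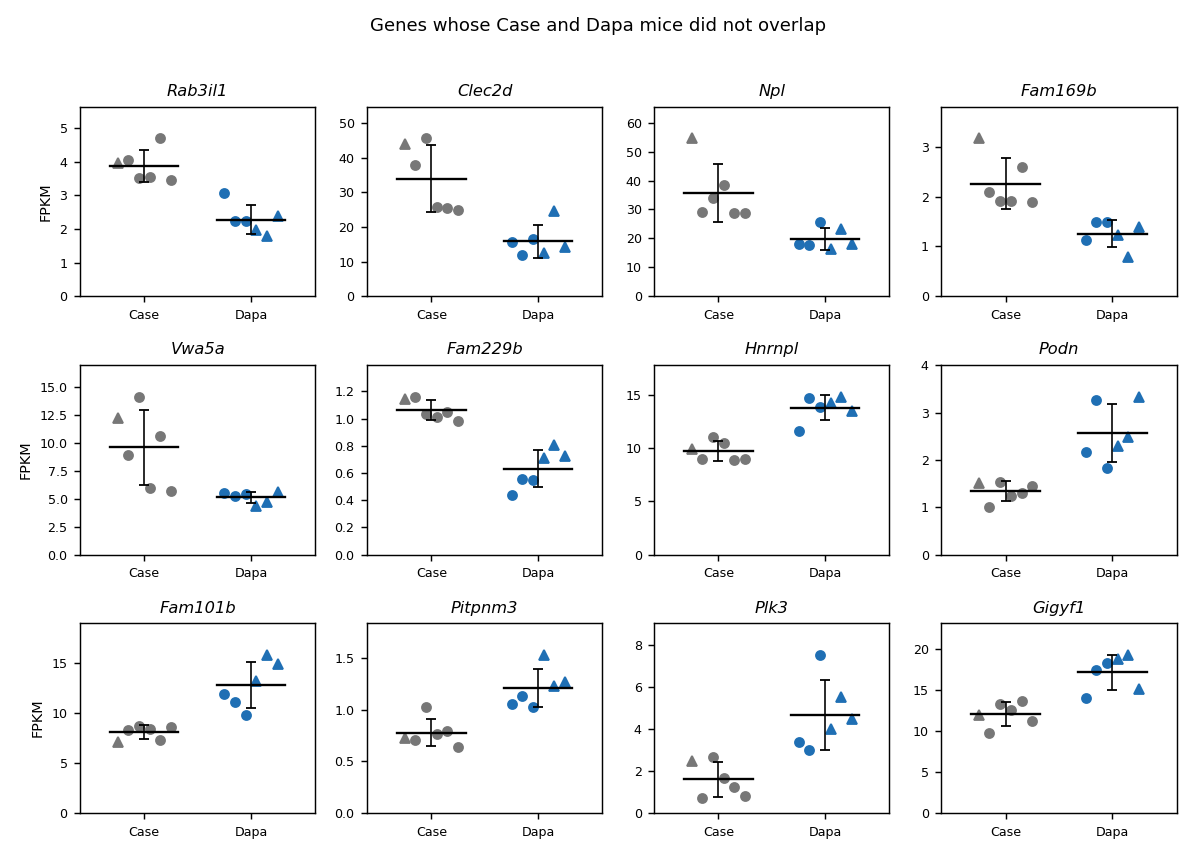
FPKM (y axis, from 0) of 12 genes in each Case and Dapa mouse, with the mean as a bar and the SD as whiskers (n = 6), and triangles for Case 1 and Dapa 10, 11 and 12. In each panel the 6 Dapa mice lie wholly below (Rab3il1, Clec2d, Npl, Fam169b, Vwa5a, Fam229b) or wholly above the 6 Case mice.

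The interferon-gamma effector genes behaved otherwise, with large differences that rested on some of the Case mice. The list has 32 members, of which 24 were tested (23 without any 1 of Case 3, 4 and 5), the others being below the count filter or absent. Of the 24, 23 were lower in Dapa and 21 of these had an unadjusted p under 0.05, beside 6.66% of all genes. The median log2 fold change was −3.31, beside −0.01 over all genes. DESeq2 called 19 of the 24, beside 0.774% of all genes in this direction, and edgeR's exact test 18, beside 0.597%. Tgtp1, a T cell-specific GTPase of the immunity-related family (chr11:48985327-48994172), was at 9.4, 1.95, 38.5, 0.446, 13.8 and 0.443 FPKM in Case 1 to 6 and at 0.812, 0.31, 0.236, 0.204, 0.368 and 0.241 FPKM in Dapa 7 to 12. Case 3 was highest, Case 5 and 1 followed, Case 2 was intermediate, and Case 4 and 6 lay within the Dapa range. The fitted log2 fold change was −4.85 ± 1.01 (exact permutation p = 0.0173; DESeq2 adjusted p = 0.000319). Iigp1, which attacks the vacuole of intracellular parasites, had the same 3 Case mice above the rest and a log2 fold change of −4.93 ± 1.08. BC023105, which is not on the list and was named for its small p, was at 0.688 to 184 FPKM (median 36.2) in Case and 0.403 to 3.12 FPKM (median 0.45) in Dapa, the most negative fold change of all tested genes (−5.87 ± 1.24). F830016B08Rik, a list member, was at 0.273 to 13.7 FPKM (median 1.88) and 0.0224 to 0.408 FPKM (median 0.263).

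The same mice recurred throughout the list. Case 1, 3 and 5 were the 3 highest Case mice at 23 of the 24 genes (95.8%), beside 9.23% of all tested genes. Case 4 and 6 were both at or below the highest Dapa mouse at 22 of the 24, which was also so at 12049 of the 14573 genes tested. The 1 member that was not lower was Cxcl10, a chemokine that recruits T cells, at 0.18 ± 0.35, named here after its value was seen. None of the 24 separated the groups without overlap. The summed level ran from 23.6 to 1504 FPKM in Case and from 27.1 to 51.0 FPKM in Dapa. Without Case 3, the median was −2.76 and 20 of 23 members had p under 0.05 (7.12% of all genes). In the 8 libraries, chosen after the data were seen, it was −3.04. All 24 members, Cxcl10 included, were lower there, 18 of them at p under 0.05 (3.12% of all genes). Of the 50-base stretches of their transcripts, Tgtp1 and Tgtp2 share 81.2% and 86.6% with another gene, mostly each other, so that the split of reads between them is uncertain.

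Upstream sequences of 4 of these genes are shown because the list moved together across mice and its promoters are known to carry interferon elements. Irgm1 (log2 fold change −3.11 ± 0.69), Igtp (−4.09 ± 0.93) and Tgtp2 (−4.49 ± 1.01) are GTPases of the same family as Tgtp1. The 250 bases before the RefSeq start (GRCm38.p6) are printed 5′ to 3′ on the gene's strand, in capitals where either of 2 motifs matched on either strand: the core of the interferon-stimulated response element, GAAANNGAA, and the gamma-activated site, TTCNNNGAA.
Tgtp1, chr11:48992247-48992496, minus strand: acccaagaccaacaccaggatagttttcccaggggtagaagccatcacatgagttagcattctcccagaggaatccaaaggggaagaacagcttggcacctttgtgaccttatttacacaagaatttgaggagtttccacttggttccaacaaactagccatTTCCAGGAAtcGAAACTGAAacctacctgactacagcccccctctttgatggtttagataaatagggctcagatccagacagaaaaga
Irgm1, chr11:48871421-48871670, minus strand: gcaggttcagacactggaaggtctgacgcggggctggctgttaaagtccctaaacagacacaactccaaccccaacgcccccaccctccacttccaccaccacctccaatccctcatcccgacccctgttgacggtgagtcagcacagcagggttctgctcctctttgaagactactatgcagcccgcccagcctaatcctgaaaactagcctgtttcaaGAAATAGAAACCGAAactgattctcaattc
Tgtp2, chr11:49064213-49064462, minus strand: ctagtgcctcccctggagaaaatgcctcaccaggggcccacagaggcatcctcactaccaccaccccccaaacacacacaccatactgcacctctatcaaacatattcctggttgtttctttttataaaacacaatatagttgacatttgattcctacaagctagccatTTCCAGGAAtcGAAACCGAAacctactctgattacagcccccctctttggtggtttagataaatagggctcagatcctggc
Igtp, chr11:58199306-58199555, plus strand: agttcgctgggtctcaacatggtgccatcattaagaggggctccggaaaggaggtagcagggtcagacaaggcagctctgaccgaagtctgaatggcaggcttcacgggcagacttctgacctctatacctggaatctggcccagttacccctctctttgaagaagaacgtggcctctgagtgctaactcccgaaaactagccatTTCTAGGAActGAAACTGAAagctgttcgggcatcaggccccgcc
Tgtp1, Tgtp2 and Igtp each held a TTCNNNGAA match upstream of a GAAANNGAA match, with the first base of the latter 77, 70 and 34 bases before the start and that of the former at 88, 81 and 45 bases. Irgm1 held 2 overlapping GAAANNGAA matches, at 30 and 24 bases, and no TTCNNNGAA match in this window. Of the 24 members, 14 had an upstream sequence in the table, of which 11 (78.6%) held GAAANNGAA and 7 (50%) TTCNNNGAA. Among 10621 tested genes with such a sequence the shares were 6.16% and 6.17%. A match is a run of letters and says nothing of binding.

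**Figure D3:**
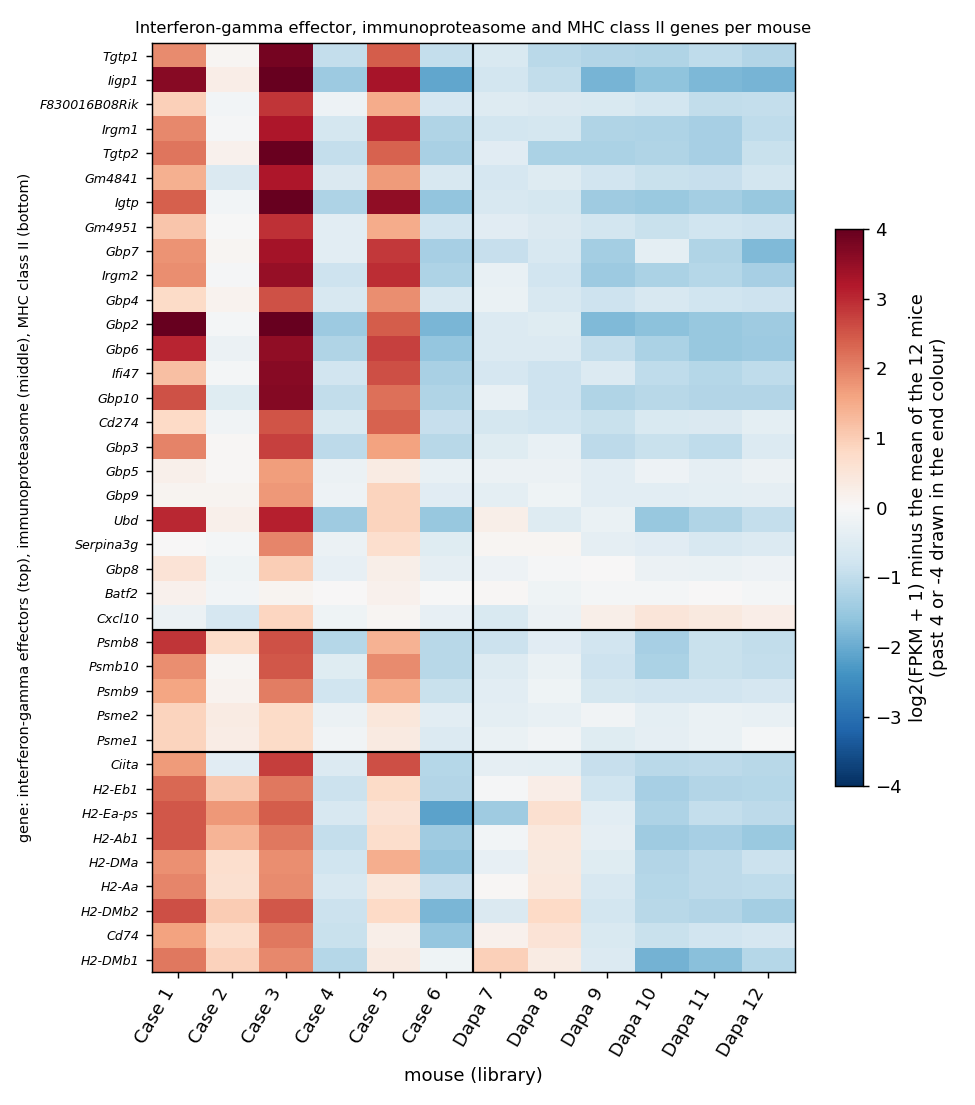
Rows are the tested genes of the interferon-gamma effector (24), immunoproteasome (5) and MHC class II (9) lists, columns the 12 mice, and colour is log2(FPKM + 1) minus the mean of the 12 mice for that gene. Case 1, 3 and 5 are red over most rows, Case 2 is near the mean or, in MHC class II, above it, and Case 4, Case 6 and the Dapa mice are mostly blue, with Dapa 7 and 8 near or above the mean in several MHC class II rows.

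Regulators upstream of these genes were lower in part. Irf1, a transcription factor that interferon-gamma induces, was at 1.45 to 17.3 FPKM (median 4.84) in Case and 1.44 to 2.33 FPKM (median 1.92) in Dapa (−1.86 ± 0.45, exact permutation p = 0.0238), and Irf9 had a log2 fold change of −1.01. Of the 19 regulators tested, 6 were lower and 1 higher at p under 0.05, beside 6.66% and 6.24% of all genes, with a median of −0.27. Without Case 3 the counts were 4 and 1 (7.12% and 7.69% of all genes), and in the 8 libraries 3 and 1 (3.12% and 2.24%). Ifng itself was below the filter: its counts were 0, 0, 6, 1, 4 and 0 in Case 1 to 6 and 0 in every Dapa mouse, too few for a test. This gene was singled out after its values were seen.

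Genes of antigen processing were lower too. All 5 immunoproteasome genes were lower at p under 0.05, beside 6.66% of all genes, with a median of −2.25, and Case 1, 3 and 5 were the 3 highest Case mice at all 5. Psmb8, a catalytic subunit, was at 40.3, 8.39, 32.3, 1.57, 13.9 and 1.62 FPKM in Case 1 to 6 and at 1.28 to 3.2 FPKM (median 2.1) in Dapa (−2.91 ± 0.68, exact permutation p = 0.0541). Psmb10 and Psmb9, the other two catalytic subunits, had log2 fold changes of −2.25 and −2.43. Of 20 genes of MHC class I and peptide loading, 12 were lower at p under 0.05 and 0 higher, beside 6.66% of all genes lower, with a median of −0.73, and the same 3 mice led at 9 of the 20. Without Case 3 the count was 9 of the 20, with a median of −0.60. Over the 8 libraries 15 were lower and 5 higher, 4 of the lower ones at p under 0.05 (3.12% of all genes), with a median of −0.44. Among them H2-T23, a non-classical class I gene, was at 5.96 to 40 FPKM (median 17.5) and 4.27 to 8.21 FPKM (median 5.52) (−1.74 ± 0.40). Tapbpl, a peptide editor, and Tap1, a subunit of the peptide transporter, had log2 fold changes of −1.78 and −2.02. DESeq2 called H2-T23 and Tapbpl but not Tap1 (adjusted p = 0.0515).

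All 9 MHC class II genes tested were lower at p under 0.05, beside 6.66% of all genes, with a median of −1.84, and the same 3 mice led at 2 of the 9. DESeq2 called 1 of the 9 genes, beside 0.774% of all genes in this direction. The exact test also called 1, beside 0.597%, and both called Ciita. Ciita, the transactivator of the class, was at 8.96, 1.25, 20.1, 1.09, 17.4 and 0.396 FPKM in Case 1 to 6 and at 1.38, 1.36, 0.635, 0.47, 0.477 and 0.438 FPKM in Dapa 7 to 12 (−3.34 ± 0.83, exact permutation p = 0.0736). Case 1, 3 and 5 stood far above the rest, and the other 3 Case mice were below the highest Dapa mouse. H2-Eb1, a class II beta chain, was at 157, 66.7, 136, 16.7, 53 and 13.2 FPKM in Case and 29.6, 37.7, 17.2, 11.6, 13.2 and 13.5 FPKM in Dapa (−1.84 ± 0.55). Here Case 2 was high too, and Dapa 7 and 8 were above Case 4 and 6. In the 8 libraries the difference of H2-Eb1 was −0.99, and the list had a median of −0.99. All 9 genes were lower there, and 1 of the 9 had p under 0.05 (3.12% of all genes).

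Type I interferon-stimulated genes differed less. Of 38 tested, 37 were lower and 20 at p under 0.05, beside 6.66% of all genes, with a median of −0.71. Without Case 3, 11 were lower and 1 higher at p under 0.05 (7.12% of all genes lower), with a median of −0.46. For the 8 libraries the count was 6 lower at p under 0.05 (3.12% of all genes), with a median of −0.82. Parp9 and its partner Dtx3l, a pair that modifies histones, had log2 fold changes of −1.10 ± 0.27 and −1.18 ± 0.34, and Samhd1, a nucleotide hydrolase that restricts viruses, −1.17 ± 0.35 (−0.76 without Case 3). DESeq2 called these 3 of the 38. Parp9 was at 4.62 to 16.4 FPKM (median 7.41) in Case and 3.8 to 4.88 FPKM (median 4.12) in Dapa, so that only the lowest Case mice lay among the Dapa mice. Case 1, 3 and 5 were the 3 highest Case mice at 21 of the 38 (55.3%). Isg15, a ubiquitin-like modifier often used as a type I readout, had a log2 fold change of −0.79 ± 0.35 that came to −0.36 without Case 3.

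Chemokines, complement and fibrinogen were lower for some members. Of 22 chemokine and cytokine genes, 5 were lower and 2 higher at p under 0.05, beside 6.66% and 6.24% of all genes, with a median of −0.49. Without Case 3, 3 were lower and 3 higher, with a median of −0.25, and without Dapa 9, 3 were lower and 0 higher. Tnfsf10, the death ligand TRAIL, was at 9.46 to 46.7 FPKM (median 19.1) in Case and 5.6 to 11.9 FPKM (median 10.1) in Dapa (−1.25 ± 0.34, exact permutation p = 0.039). Il15, a cytokine that sustains natural killer and memory T cells, differed less but more evenly, at 5.41 to 7.52 FPKM (median 6.42) and 3.52 to 6.23 FPKM (median 4.43) (−0.51 ± 0.15, exact permutation p = 0.0108). Of 19 complement genes, 8 were lower at p under 0.05 and 0 higher, beside 6.66% of all genes lower, with a median of −0.52. The count was 5 without Case 1 and 6 without Case 3, where the median was −0.30, and 3 in the 8 libraries (3.12% of all genes), where it was −0.44. C4b, a component of the classical pathway, was at 57.6, 13.5, 59.6, 9.65, 40.5 and 1.74 FPKM in Case 1 to 6 and at 6.21, 15.4, 2.66, 1.52, 3.87 and 2.2 FPKM in Dapa 7 to 12 (−2.52 ± 0.74, exact permutation p = 0.0476; −1.61 in the 8 libraries), and 34.6% of its 50-base stretches are shared with C4a (−1.75), so that the split of reads is uncertain. C1s1, a protease of the first component, had a log2 fold change of −0.47. Of 18 genes of the acute phase and coagulation, 8 were higher and 10 lower, 1 and 3 of them at p under 0.05, with a median of −0.12. With 1 mouse left out, 0 to 2 were higher and 2 to 5 lower at p under 0.05 (5 without Dapa 8), and the median was −0.01 without Case 1. The 3 lower ones were the fibrinogen genes Fgg, Fga and Fgb, with log2 fold changes of −2.84, −2.18 and −1.80. Case 1 was the highest mouse for all 3 (373 FPKM for Fgg, next 132 in Case 3), and in the 8 libraries the values were −1.06, −0.70 and −0.04.

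Markers of immune cells were set beside these results, where 6.24% of all genes were higher and 6.66% lower at p under 0.05. Macrophage markers (13 tested of 18) had a summed level of 30.9 to 209 FPKM in Case and 27.7 to 65.3 in Dapa, with Case 3 the highest. Of the 13, 5 were higher and 8 lower in Dapa, with log2 fold changes from −0.97 to 0.14 and none at p under 0.05. Their median was −0.37 with all mice and 0.06 without Case 3. Lyz2, the lysozyme of myeloid cells, was at 24.3, 20.5, 99.3, 7.01, 6.16 and 8.4 FPKM in Case and 11.5, 20.9, 4.46, 15.9, 14.6 and 17.2 FPKM in Dapa. C1qb, the complement gene made by macrophages, and Csf2rb, the shared receptor chain of GM-CSF, had log2 fold changes of −0.78 ± 0.38 and −0.51 ± 0.53, and of −0.25 and −0.03 without Case 3. Of 20 T and natural killer cell markers, 17 were under 1 FPKM in every mouse and 6 were tested. Their summed level was 0.634 to 5.19 FPKM in Case and 1.99 to 3.62 in Dapa, and Cd8a, at 0.0274 to 0.0989 FPKM (median 0.0684) in Case and 0.0367 to 0.217 FPKM (median 0.142) in Dapa, was the 1 gene with p under 0.05 (log2 fold change 0.99). Their median was 0.58, with 5 of the 6 higher in Dapa. Without Case 3 it was 1.10, and 4 of the 6 were higher at p under 0.05 (7.69% of all genes). Without any other single mouse the count was 0 or 1, with a median of 0.37 to 0.63. Cd3e, the signalling chain of the T cell receptor, had 0, 0, 9, 0, 3 and 0 counts in Case and 3, 11, 14, 2, 3 and 4 in Dapa. B and plasma cell markers (5 tested of 15) summed to 4.33 to 18.6 FPKM in Case and 4.21 to 91.4 in Dapa, where Dapa 8 and 7 were highest. All 5 were higher in Dapa, 1 at p under 0.05, with a median of 1.55. The count at p under 0.05 was 4 in the 8 libraries (2.24% of all genes) and ran from 0 to 4 with 1 mouse left out. It was 0 without any of Case 1, 2, 4, 5 and 6 and Dapa 7 and 8, and 2 to 4 without Case 3, Dapa 9, 10, 11 or 12. The median was 0.39 without Dapa 8 and 1.36 to 1.93 without any other mouse. Igha, the constant region of IgA, reached 16.2 FPKM in Dapa 8 against at most 2.80 elsewhere, and its log2 fold change was 1.96, or 0.14 without Dapa 8. None of the markers of these lists was at 0 in all 12 mice. Their part in the interferon result was not tested.

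Salt transport and collecting duct genes were mostly higher in Dapa over the 12 mice, by small amounts, and less so in the 8 libraries. Of 15 collecting duct markers, 14 were higher and 8 had p under 0.05 (6.24% of all genes in this direction), with a median of 0.30. Over the 8 libraries 10 were higher and 5 lower, 4 of the former at p under 0.05 (2.24% of all genes), with a median of 0.14, and without Dapa 12 the count at p under 0.05 was 4. Scnn1g and Scnn1b, 2 subunits of the epithelial sodium channel through which aldosterone regulates sodium uptake, were at 12.4, 12.2, 17.1, 16.1, 14.7 and 14.5 FPKM and 9.65, 9.6, 12.6, 12.5, 10.6 and 10.2 FPKM in Case 1 to 6. In Dapa 7 to 12 they were at 16.9, 21.9, 19.1, 16.5, 16.3 and 22.1 FPKM and 11.9, 14.4, 14.8, 13.9, 11.7 and 14.2 FPKM. Both were higher in most Dapa mice, with some overlap (0.35 ± 0.11, exact permutation p = 0.0108, and 0.30 ± 0.10, exact permutation p = 0.013), and the values in the 8 libraries were 0.37 and 0.30. Foxi1, the master regulator of intercalated cells, was at 8.85 to 14.3 FPKM (median 11.7) and 11.4 to 26.8 FPKM (median 18.2) (0.66 ± 0.20; 0.43 in the 8 libraries). DESeq2 called none of the 15.

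Of 45 genes of sodium, potassium and water transport, 13 were higher and 1 lower at p under 0.05, beside 6.24% and 6.66% of all genes, with a median of 0.16, and without Dapa 12, 8 were higher and 2 lower. Bsnd, the chloride channel subunit barttin, was at 14.7 to 21.5 FPKM (median 18) in Case and 19 to 28.9 FPKM (median 24) in Dapa (0.37 ± 0.11, exact permutation p = 0.0108), but the difference was 0.13 in the 8 libraries. Kcnj10, a potassium channel of the basolateral membrane, was at 17.2 to 22.6 FPKM (median 18.4) and 20.1 to 25.6 FPKM (median 23.6) (0.28 ± 0.08; 0.27 in the 8 libraries). Nr3c2, the mineralocorticoid receptor, had a log2 fold change of 0.69 ± 0.22. Dapa 10, 11 and 12 were the 3 highest Dapa mice at 14 of the 45 (31.1%), beside 10.1% of all genes, and in the 8 libraries 6 genes were higher and 0 lower at p under 0.05 (2.24% and 3.12% of all genes), with a median of 0.03. Slc12a3, the thiazide-sensitive cotransporter, and Umod, the main protein of the thick ascending limb, had log2 fold changes of 0.11 ± 0.13 and −0.23 ± 0.30, and none of the 14 markers of these segments had p under 0.05.

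**Figure D4:**
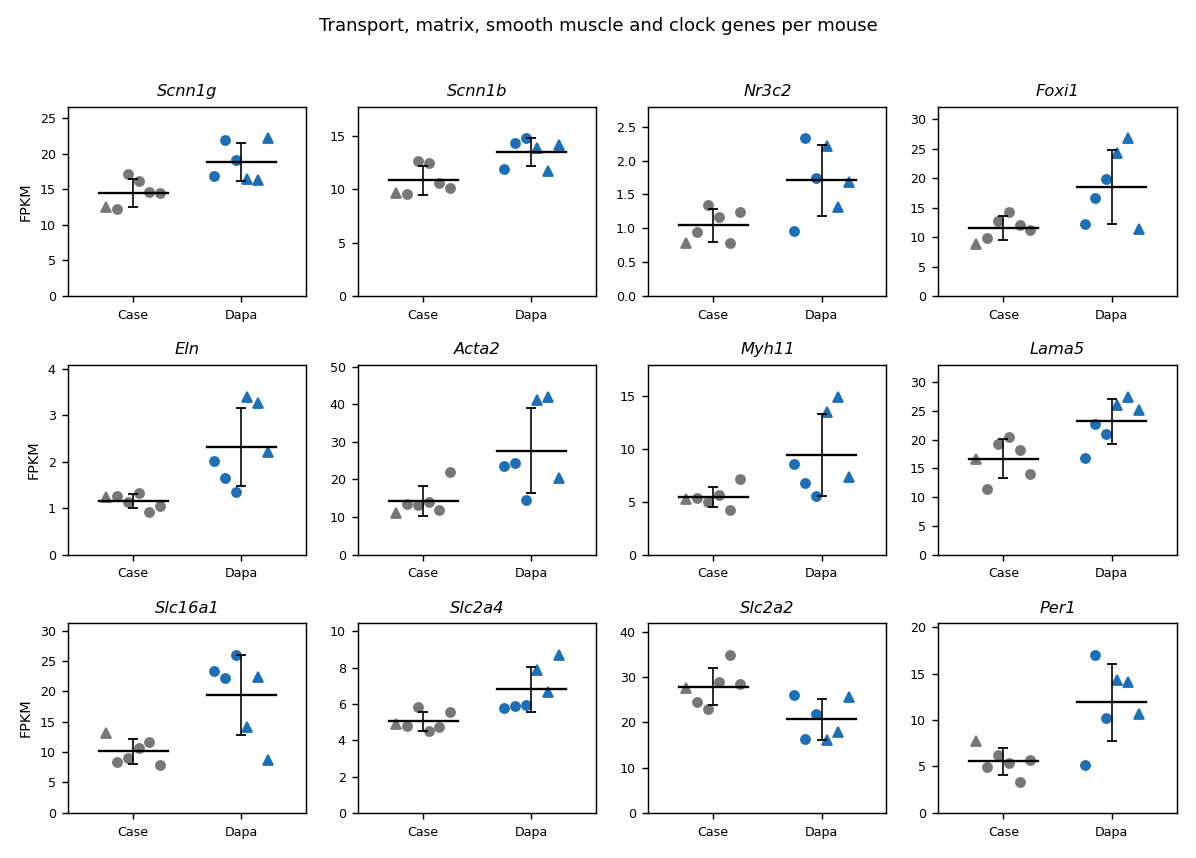
FPKM (y axis, from 0) of 12 transport, matrix, smooth muscle, metabolite carrier and clock genes in each Case and Dapa mouse, with the mean as a bar and the SD as whiskers (n = 6); triangles are Case 1 and Dapa 10, 11 and 12. Eln separates the groups, the other panels overlap, and for Acta2 and Myh11 the 2 highest mice are Dapa 10 and 11.

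Some matrix and contractile genes were higher in Dapa, whereas the matrix list as a whole was not. Eln, which encodes elastin, was at 1.25, 1.27, 1.12, 1.33, 0.918 and 1.05 FPKM in Case 1 to 6 and at 2.01, 1.66, 1.35, 3.4, 3.26 and 2.22 FPKM in Dapa 7 to 12. It was the 1 gene of all lists without overlap between the groups (0.98 ± 0.21, exact permutation p = 0.00216; DESeq2 adjusted p = 0.00413), and its difference was 0.55 in the 8 libraries. Acta2, smooth muscle actin, was at 11.1, 13.5, 13.3, 14, 11.8 and 22 FPKM in Case and 23.4, 24.3, 14.6, 41.2, 42 and 20.4 FPKM in Dapa (0.91 ± 0.25), with Dapa 10 and 11 highest, and 0.45 in the 8 libraries. Myh11, smooth muscle myosin, and Cnn1, calponin, had log2 fold changes of 0.76 and 1.52, against 0.33 and 0.58 in the 8 libraries. Of the 15 markers of mesangium, fibroblasts and smooth muscle, 9 were higher and 6 lower, 4 and 0 of them at p under 0.05 (6.24% and 6.66% of all genes), with a median of 0.12. Over the 8 libraries 5 were higher and 10 lower, 0 and 2 of them at p under 0.05, with a median of −0.16. Lama5, a laminin chain of basement membranes, had 0.46 ± 0.14, and 0.27 in the 8 libraries. The 38 genes of the matrix list include Acta2, which is also counted among the 15 markers above. Of the 38, 16 were higher and 22 lower, with a median of −0.07 (0.08 without Case 3), and 7 were higher and 0 lower at p under 0.05. Over the 8 libraries 11 were higher and 27 lower, 1 and 6 of them at p under 0.05 (2.24% and 3.12% of all genes), with a median of −0.30. Endothelial markers were higher at 13 of 16 genes in the 12 mice and at 3 of 16 in the 8 libraries, and Dapa 10, 11 and 12 were the 3 highest Dapa mice at 12 of the 16 (75.0%). Robo4, a guidance receptor of endothelium, had a log2 fold change of 0.61 ± 0.15 (DESeq2 adjusted p = 0.0358) and 0.22 in the 8 libraries.

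Metabolic lists as a whole had medians near that of all genes, with single genes at p under 0.05, where 6.24% of all genes were higher and 6.66% lower. Slc16a1, the monocarboxylate carrier MCT1 of lactate and ketone bodies, was at 13.1, 8.42, 8.99, 10.8, 11.7 and 7.85 FPKM in Case 1 to 6 and at 23.4, 22.2, 26, 14.2, 22.3 and 8.63 FPKM in Dapa 7 to 12. It was above every Case mouse in 5 of the 6 Dapa mice, Dapa 12 being the exception (0.92 ± 0.23, exact permutation p = 0.0173; DESeq2 adjusted p = 0.0149), and its difference was 1.32 in the 8 libraries. Slc16a7, the related carrier MCT2, had a log2 fold change of 0.48 ± 0.16, and 0.19 in the 8 libraries. Acss1, the mitochondrial acetyl-CoA synthetase, was lower (−0.32 ± 0.14). Of 12 ketone body genes, 2 were higher and 2 lower at p under 0.05, and 0 were lower without Case 4, Case 5, Dapa 10, Dapa 11 or Dapa 12.

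Among glucose carriers, Slc2a4, the insulin-sensitive carrier GLUT4, was at 4.49 to 5.82 FPKM (median 4.85) in Case and 5.78 to 8.7 FPKM (median 6.3) in Dapa (0.40 ± 0.12, exact permutation p = 0.00433). Slc2a2, the basolateral carrier GLUT2 through which the proximal tubule returns glucose to blood, was lower, at 22.9 to 34.8 FPKM (median 28) and 16.1 to 26.1 FPKM (median 19.8) (−0.46 ± 0.15, exact permutation p = 0.0216). The groups overlapped for both, and in the 8 libraries the values were 0.20 and −0.39. Of the 22 genes of glucose transport and sensing, 2 were higher and 1 lower at p under 0.05, and with 1 mouse left out 1 to 3 were higher and 1 to 5 lower (5 without Case 3). Gluconeogenesis (1 of 21, Crtc2, a co-activator that fasting engages, at 0.33 ± 0.13) and glycolysis (2 of 32, Pkm and Akr1b3, at 0.39 and 1.71) held few such genes, and Pkm was at 0.04 in the 8 libraries. When 1 mouse was left out, gluconeogenesis held 0 to 1 higher and 0 to 2 lower (1 and 2 without Case 3 or Dapa 12, 0 and 0 without Case 2 or Dapa 11), and glycolysis 1 to 3 higher and 0 to 2 lower (3 and 2 without Case 3). Akr1b3, aldose reductase of the polyol pathway, was high in Dapa 11 and 12 alone, at 11.7 and 6.99 FPKM against at most 2.04 elsewhere, and was −0.25 in the 8 libraries.

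Lipid synthesis genes were higher in part. Of 37 genes, 7 were higher and 1 lower at p under 0.05, beside 6.24% and 6.66% of all genes, with a median of 0.14 in the 12 mice and 0.13 in the 8 libraries, where 3 were higher and 0 lower (2.24% and 3.12% of all genes). The count of higher genes was 4 without Case 1, Case 2, Dapa 8 or Dapa 11. Srebf2, a transcription factor that drives cholesterol synthesis, was at 9.37 to 13.2 FPKM (median 11) in Case and 12.7 to 15.1 FPKM (median 13.9) in Dapa (0.29 ± 0.10). Scd1, a desaturase, varied widely, at 11.5, 3.93, 9.23, 10.3, 3.79 and 2.24 FPKM in Case 1 to 6 and 20.1, 24.4, 4.29, 19, 41 and 4.63 FPKM in Dapa 7 to 12 (1.44 ± 0.53), and Dapa 9 and 12 lay within the Case range. Fatty acid oxidation held 2 higher and 1 lower of 42 genes, and with 1 mouse left out 0 to 2 higher and 0 to 5 lower (5 without Dapa 7). Its median was −0.03 in the 12 mice and 0.21 in the 8 libraries, where 33 of 42 were higher. None of the 40 nuclear genes of the respiratory chain had p under 0.05, although 6 were lower without Case 3, and Atp5b, a subunit of ATP synthase, had a log2 fold change of −0.13 ± 0.12.

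Of 21 clock genes, 3 were higher and 0 lower at p under 0.05, beside 6.24% and 6.66% of all genes. Per1, a repressor of the core loop that glucocorticoids and feeding also induce, was at 7.7, 4.89, 6.28, 5.36, 3.31 and 5.69 FPKM in Case 1 to 6 and at 5.15, 17, 10.2, 14.3, 14.1 and 10.7 FPKM in Dapa 7 to 12. It was above every Case mouse in 5 of the 6 Dapa mice, Dapa 7 being the exception (1.08 ± 0.25, exact permutation p = 0.0108; DESeq2 adjusted p = 0.00534). Arntl, which encodes the activator BMAL1, was at 1.18 to 7.5 FPKM (median 2.2) and 3.09 to 8.74 FPKM (median 5.8) (1.03 ± 0.38; 1.55 without Case 3), and its partner Npas2 had 1.59 ± 0.51. The time of day at which each kidney was taken is not given in the sources used here.

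Further genes, some of tubular function and some of other lists, are given one by one. Cyp27b1, the enzyme that activates vitamin D, was at 33, 7.13, 4.49, 33.3, 6.93 and 11.6 FPKM in Case 1 to 6 and at 20.2, 54.8, 53.7, 53.5, 32 and 17.6 FPKM in Dapa 7 to 12 (1.24 ± 0.51, exact permutation p = 0.039), with Case 1 and 4 inside the Dapa range. Slc22a5, the carnitine transporter, and Slc7a7, an amino acid exchanger, had log2 fold changes of −0.39 ± 0.13 and −0.45 ± 0.14, and −0.20 and −0.17 in the 8 libraries. Slc13a1, the sulphate cotransporter, was at 28.6 to 140 FPKM (median 60.9) and 22.4 to 54.3 FPKM (median 33) (−0.97; −0.22 in the 8 libraries). Hsd3b1, a steroid dehydrogenase that was listed as an adrenal marker, was at 0.325, 0.593, 0.69, 1.52, 0.42 and 0.316 FPKM in Case and 0.0222, 5.04, 4.95, 7.1, 6.08 and 2.31 FPKM in Dapa (2.70 ± 0.69; DESeq2 adjusted p = 0.0481). It was higher in 5 of 6 Dapa mice than in any Case mouse, and lowest of all in Dapa 7. Apob, the apolipoprotein of secreted lipid particles, was at 19.3 to 35.4 FPKM (median 26) and 7.94 to 20 FPKM (median 14.9) (−0.82 ± 0.21; DESeq2 adjusted p = 0.0178). Ren1, renin, and Lepr had log2 fold changes of −0.58 ± 0.34 (−0.22 in the 8 libraries) and 0.01 ± 0.54 (−1.03 in the 8 libraries), within the spread between mice.

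Injury genes were close to the background. Of 24, 2 were higher and 1 lower at p under 0.05, beside 12.9% of all genes in either direction, and with 1 mouse left out 1 to 3 were higher and 0 to 4 lower. Their median was 0.12, or −0.11 in the 8 libraries, 0.27 without Case 3 and 0.02 without Dapa 11. Cdkn1a, the cell cycle inhibitor p21, was at 2.98 to 8.64 FPKM (median 4.13) in Case and 4.49 to 13.7 FPKM (median 8.07) in Dapa (0.75 ± 0.26), Krt18, a keratin, had 0.63 ± 0.24 (0.10 in the 8 libraries), and Spp1, osteopontin, was at 1427, 604, 814, 334, 366 and 231 FPKM in Case and 231, 613, 290, 256, 261 and 296 FPKM in Dapa (−0.97 ± 0.39). For Spp1, Case 1 was the highest mouse, and the difference was −0.30 in the 8 libraries. Podocyte markers were 2 higher and 1 lower of 14, and with 1 mouse left out 1 to 3 higher and 0 to 3 lower (3 and 3 without Case 4), among them Wt1, a transcription factor of the podocyte, at 0.35 ± 0.14 and Nes, nestin, at −0.33 ± 0.12 (−0.53 in the 8 libraries). The lists of cell proliferation (28 genes), immediate early genes (21) and the renin-angiotensin system (11) held 0 genes with p under 0.05 by edgeR and 0 called by DESeq2, and the lists of hypoxia (19), the unfolded protein response (29) and mitochondrially encoded genes (13) held 1 each, all lower: Ero1l at −0.21, Trib3 at −0.92 (−1.39 in the 8 libraries) and mt-Nd6 at −0.45. With 1 mouse left out these 6 lists held at most 3 genes in either direction, the 3 being higher immediate early genes without Case 3 and lower hypoxia genes without Case 3 or Case 4.

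The remaining lists were close to the background of 6.24% of all genes higher and 6.66% lower at p under 0.05, or held few such genes. Antioxidant and NRF2 target genes were 4 higher and 1 lower of 31, with 1 mouse left out 1 to 5 higher and 0 to 4 lower, among them Nfe2l2, the transcription factor NRF2 itself (0.21 ± 0.09, 0.11 in the 8 libraries) and Gstm2, a glutathione transferase (0.64 ± 0.26, 0.04). Aox1, aldehyde oxidase, was below 1 FPKM in every mouse, at a log2 fold change of 1.29 (0.51 in the 8 libraries). Cytochrome P450 and glucuronidation genes were 1 higher and 1 lower of 37, the latter Ugt1a9 (−2.49), which was at 104 FPKM in Case 1 and at most 15.1 FPKM elsewhere. Its difference was −1.04 without Case 1 and −1.63 in the 8 libraries, and 61.8% of its 50-base stretches are shared with Ugt1a10, so that the split of reads is uncertain. With 1 mouse left out this list held 0 to 3 higher and 1 to 4 lower genes. Androgen-responsive genes were 1 higher and 2 lower of 18, among them Cyp4a12a at 0.61 and Timd2 at −0.48 (−0.14 in the 8 libraries). When 1 mouse was left out, 0 to 3 were higher (3 without Case 5 or Dapa 12, 0 without Case 1, 2 or 6 or Dapa 7, 8, 9 or 11) and 1 to 2 lower. Whatever the p, 14 of the 18 were higher and 4 lower. Their median was 0.34, or 0.13 without Dapa 7, and 0.50 in the 8 libraries, where 15 were higher and 3 lower. Of the 50-base stretches of Cyp4a12a, 48.9% are shared with Cyp4a12b, so that the split of reads is uncertain. Leptin, insulin and IGF signalling held 1 higher and 2 lower of 20, Igfbp2 (1.53; 0.22 in the 8 libraries), Igfbp3 (−0.52) and Grb10 (−0.20), and with 1 mouse left out 0 to 2 in either direction. Organic ion and amino acid transport held 3 lower of 46 (6 without Dapa 7), with a median of −0.06 that was 0.17 in the 8 libraries, and proximal tubule markers 1 lower of 20, Slc7a7, with a median of 0.06 (0.20 in the 8 libraries).

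Markers of tissues that could enter a kidney sample were also read, where 6.24% of all genes were higher and 6.66% lower at p under 0.05. Of 9 liver markers 4 were higher and 5 lower, and 2 of the lower ones had p under 0.05, Apob and Apoa2 (−0.81). The liver median was −0.20, and it was 0.31 without Case 1 and 0.34 in the 8 libraries. Of 4 adipocyte markers 3 were higher and 1 lower, and Car3 was the 1 with p under 0.05. Car3 was at 1.15 to 7.55 FPKM (median 2.73) in Case and 4.59 to 10.8 FPKM (median 6.45) in Dapa (1.18 ± 0.41). Of adrenal markers 3 of 10 were tested, Hsd3b1 being the 1 with p under 0.05. Erythrocyte markers had 0 of 7, with a median of 0.25. It was −0.17 in the 8 libraries, and 0.73 without Case 3, where 3 of the 7 were higher at p under 0.05 (7.69% of all genes). Hba-a1, a globin, was at 11.8 to 85.5 FPKM (median 32.1) in Case and 25.4 to 78.8 FPKM (median 51.1) in Dapa (log2 fold change 0.47, and −0.01 in the 8 libraries). Of its 50-base stretches, 72.3% are shared with Hba-a2, so that the split of reads is uncertain. Neutrophil markers had 0 of 2, S100a9 at 0.154 to 10.4 FPKM (median 1.39) and 0.211 to 4.35 FPKM (median 1.26), and the 1 pancreas marker tested, Cela1, had a log2 fold change of 0.07 ± 0.31 (−0.11 in the 8 libraries).

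**Figure D5:**
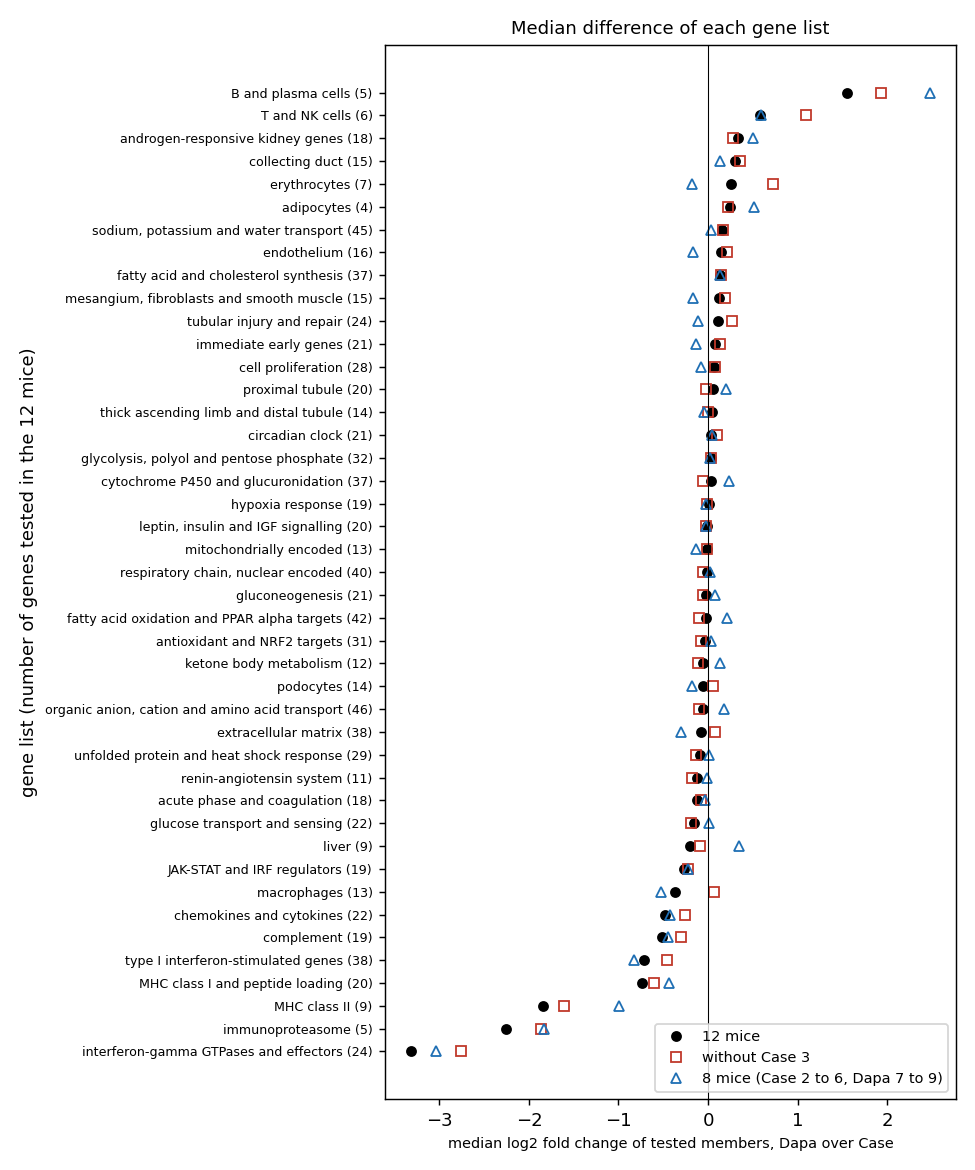
Median fitted log2 fold change (Dapa over Case, x axis) of the tested members of each list with at least 4 of them (y axis, number tested in brackets), in all 12 mice (black circles), without Case 3 (squares) and in the 8 libraries (triangles). The interferon-gamma, immunoproteasome and MHC class II lists lie between −3.31 and −0.99 in all 3 sets, and most other lists stay near 0. Of the 43 lists plotted, 22 change sign between the sets, among them endothelium, erythrocytes, extracellular matrix, liver, macrophages, podocytes and tubular injury, and B and plasma cells lie farthest right.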

How the data were processed

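Per the labels, strand-specific libraries were made from mRNA-enriched kidney RNA and aligned to mm10 with HISAT2. The deposited table holds gene counts and FPKM that the authors made with StringTie, per the study's methods. The deposited FPKM equal count over library total and length to within 0.0015%. Of 22561 genes, Sirt1, Tgfb1 and Bmp4 were left out, because each is split across 2 lines of the table and its FPKM and counts do not match in 4 libraries (factors 0.725 to 0.916). The 10 per-sample columns of non-diabetic mice were not used. Counts of the 12 libraries were filtered (filterByExpr), scaled (TMM) and tested with edgeR 4.0.16 (quasi-likelihood, Benjamini-Hochberg over 14573 genes; R 4.3.3); limma 3.58.1 and DESeq2 1.42.0 were alternatives. On simulated counts for these genes, 95.9% of 194 genes changed 4-fold were recovered, with 11 false calls. These counts were drawn for each gene on its own, with the same dispersion in both groups. They do not cover genes such as Iigp1, whose SD was 207.5 FPKM in Case and 2.175 FPKM in Dapa. Single values were compared by exact two-sided permutation of log2(FPKM + 1). Groups came from the labels (db/db with treatment Normal or Dapagliflozin), and p-values measure the spread between these samples. No 2 libraries of a group agreed within sampling noise.

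The lists and members were chosen with earlier results of these data known. Genes named are the 12 with the smallest p in each direction at a mean of 1 FPKM or more, up to 3 per list at p under 0.05 (otherwise the 2 highest), Slc5a2, Slc5a1, Lepr, Isg15, Csf2rb and Btla, 10 called by both DESeq2 and the exact test, and the 6 with the widest gap. Btla was below the filter. Some genes that this rule names are not reported here. Upstream sequences are RefSeq's (GRCm38.p6). Shared 50-base stretches were counted in GENCODE transcripts of the same build. Alternatives were other scalings, filters, tests and libraries; the 8 libraries, and DESeq2 or the exact test without Case 3, were added after the data were seen.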

Additional observations from a re-analysis of the deposited data

Results flagged for a closer look

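Among the named genes and library measures, 20 groups of 6 mice held a mouse whose gap to its nearest neighbour exceeded Dixon's 95% limit for 6 values, as a share of the range on log2(FPKM + 1). Of 260 groups looked at, chance alone flags about 1 in 20. In Case the mouse above the rest was Case 3 for Arntl (0.632 of the range) and Isg15 (0.666), Case 6 for Acta2 (0.668), Case 1 for Ugt1a9 (0.661) and Case 2 for Ctsd (0.635), and the mouse below the rest was Case 5 for Med9 (0.786) and Slc16a7 (0.665). In Dapa the mouse above the rest was Dapa 7 for Tgtp1 (0.688) and BC023105 (0.762), Dapa 8 for Tap1 (0.678), Spp1 (0.746), Fgb (0.63), Igha (0.682) and Ctsd (0.725), Dapa 11 for Aox1 (0.673) and Dapa 12 for Isg15 (0.702). The mouse below the rest was Dapa 12 for Apob (0.638) and Wt1 (0.627), Dapa 9 for Tnfsf10 (0.667) and Dapa 11 for Slc12a3 (0.675).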

How the results depend on the processing

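No paired analysis was possible because the Case and Dapa mice share no replicate number. The 0 genes called by the main test stayed 0 under each other quasi-likelihood and limma setting except without Dapa 7, where 7 were called (range over mice left out 0 to 7). DESeq2 called 200 and the edgeR exact test 125; without Case 3, settings chosen after the data were seen, they called 261 and 149. Genes with unadjusted p under 0.05 numbered 800 in the 8 libraries and 1382 to 2348 with 1 mouse left out, and up to 2529 for DESeq2 without Case 3. Genes without overlap numbered 87 to 288 with 1 mouse left out.

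On log2(FPKM + 1), list medians shrank to −1.48 for interferon-gamma effectors, −0.084 for glucose transport, 0.45 for B cells and 0.098 for T cells, and hypoxia came to 0.065 (0.079 with 0.1 added). With the term for the 4 libraries, glucose transport came to −0.065. In the 8 libraries it was 0.0055, cell proliferation −0.077, liver 0.34, podocytes −0.18 and endothelium −0.17. With voom weights T cells came to 0.85 and liver to 0.18. With 1 mouse left out, the medians ran from 0.39 to 1.93 for B cells, −0.036 to 0.095 for cell proliferation, −0.41 to 0.31 for liver and 0.37 to 1.10 for T cells (1.11 by DESeq2 without Case 3).

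Of the 134 named genes, 12 changed sign under some setting, of which Akr1b3 and Emcn had an unadjusted p under 0.05 in the main test. In the 8 libraries this held for Akr1b3 (−0.25), Emcn (−0.028), Slc5a1 (0.050), Hba-a1 (−0.010), Hbb-bs (−0.17), Cela1 (−0.11), Zfp36 (−0.17) and Lepr (−1.03), with voom weights for Csf2rb (0.10) and Umod (0.0087), and with the term for the 4 libraries for Zfp36 (−0.091) and Lepr (−0.68). With 1 mouse left out, Lyz2 ran from −1.16 to 0.053 (0.051 without Case 3 by DESeq2 or the exact test), Cela1 from −0.084 to 0.33 (−0.088 by DESeq2 and −0.084 by the exact test without Case 3), Cox8a from −0.042 to 0.051 (−0.044 and −0.042), Zfp36 from −0.12 to 0.16 and Lepr from −0.25 to 0.37. The cause was not tested. Of the remaining values of named genes, 3392 kept their direction and side of the threshold and 179 kept their direction and passed it, under DESeq2, the exact test or without Dapa 7. Low counts limit single markers: Ifng and Cd3e could not be tested at this depth.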
